A study of Drosophila melanogaster with 6 samples.

Results

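Fragments of transfer RNA were counted in the bodies, without testes, of adult male Drosophila melanogaster that had recovered for 2 days from a heat shock, and were set against untreated flies. Of the 6 libraries of the series, 4 belong to this comparison, chosen by their labels as 2 day recovery or control. They are 1 library of recovered heterozygotes, 1 of recovered Dnmt2 mutants, 1 of control heterozygotes and 1 of control Dnmt2 mutants. The heterozygotes were w1118; +/Dnmt2 mutant;+/+ and the mutants w1118; Dnmt2 mutant/Dnmt2 mutant;+/+, so every fly carried w1118 and at least 1 mutant copy of Dnmt2, and no wild type flies are among these groups by their labels. Recovered flies had 1 h at 37 °C, were sampled 2 days later and were 12 days old. Control flies had no heat shock and were 10 days old. Recovery and 2 more days of age cannot be told apart. The other 2 libraries, 10-day-old flies of each genotype sampled 5 h after the same heat shock, entered the model that estimates spread and are given only as a middle time point.

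A tRNA is read by the ribosome through the 3 bases of its anticodon, and tRNAs with the same amino acid and anticodon are called an isoacceptor. Under stress, ribonucleases cut mature tRNAs in the anticodon loop and leave a 5′ fragment and a 3′ fragment, known as tRNA-derived fragments. Dnmt2 is an RNA methyltransferase that methylates a cytosine in the anticodon loop of tRNA Asp-GTC, Gly-GCC and Val-AAC, and in flies this mark is known to protect those tRNAs from stress-induced cutting.

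The deposited counts held 28522 tRNA fragment reads in recovered heterozygotes, 15337 in control heterozygotes, 5113 in recovered mutants and 67477 in control mutants, each read counted once. The recovered mutant library was thus the shallowest, and a sequence with no read in it could still make up 0.0587% of its reads, the share that 3 counts would give. In the other 3 libraries that limit lay between 0.00445% and 0.0196%. Between 99.1% and 99.7% of the reads in these 4 libraries could be placed on a tRNA. With 1 library per group there is no replicate spread within a group. Intervals given below are 95% intervals for counting error only, and PCR reads are not independent molecules. With 2 genotypes as pairs, an exact sign-flip permutation test cannot go below p = 0.5, so shares are described without a test. In RNA from whole bodies, fewer cells of a type and less RNA per cell cannot be told apart. The lists held only sequences that match nuclear tRNA genes, so marker genes of the tissue, the heat shock genes and Dnmt2 itself were not analysed here.

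The sequences below are examples of fragments and their ends. Only the 33 nt Lys-TTT fragment is among the 10 with most reads, and not all carry a difference in ends. Asp-GTC ends at 35 did not differ beyond counting error in either genotype. Pro-CGG ends were not compared, since recovered mutants had 29 of its 5′ fragments, under the minimum of 50. Capitals mark tRNA positions 33 to 36, which are the base before the anticodon and the anticodon, as far as a fragment reaches. Positions are counted from the anticodon, whose first base is 34, so a tRNA with 1 base fewer in front of it begins at position 2. All were read from the deposited lists, and each is the most abundant listed sequence with those ends.
Lys-TTT, 5′ fragment, positions 1 to 33, 33 nt, 5 genes on 3R: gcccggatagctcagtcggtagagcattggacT
Lys-TTT, 5′ fragment, positions 1 to 34, 34 nt, 5 genes on 3R: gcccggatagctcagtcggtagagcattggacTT
Asp-GTC, 5′ fragment, positions 1 to 35, 35 nt, 14 genes on 2L, 3L and 3R: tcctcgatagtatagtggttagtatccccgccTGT
Asp-GTC, 3′ fragment, positions 28 to 72, 45 nt, 13 genes on 2L, 3L and 3R: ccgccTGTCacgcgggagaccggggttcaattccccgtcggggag
Cys-GCA, 5′ fragment, positions 2 to 33, 32 nt, 4 genes on 3L: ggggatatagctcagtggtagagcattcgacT
Pro-CGG, 5′ fragment, positions 2 to 33, 32 nt, 3 genes on 3L and X: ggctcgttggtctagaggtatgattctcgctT
Pro-CGG, 5′ fragment, positions 2 to 35, 34 nt, 3 genes on 3L and X: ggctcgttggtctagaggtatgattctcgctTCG
The pairs of 5′ fragments differ by the 1 or 2 anticodon bases that the longer one keeps.

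The 5 isoacceptors with most reads over the 4 libraries supplied most of the reads in each, and the balance among them differed between recovery and control in both genotypes. Together Gly-GCC, Lys-CTT, Glu-CTC, Lys-TTT and Asp-GTC held 84.7% and 89.7% of reads in recovered heterozygotes and mutants, against 89.2% and 89.98% in control heterozygotes and mutants. Of 22 isoacceptor features with enough reads to test, 5 had a higher share of reads after recovery in both genotypes with intervals that exclude 0, namely Glu-CTC, Lys-TTT, Asp-GTC, Glu-TTC and Cys-GCA. Gly-GCC alone had a lower share in both, and Lys-CTT and Trp-CCA had a higher share in heterozygotes and a lower one in mutants. Each is 1 library against 1, and shares within a library add up to the whole, so a lower Gly-GCC share goes with higher shares elsewhere. Among reads other than Gly-GCC, the recovery minus control difference was 3.07 points in heterozygotes and 13.3 points in mutants for Glu-CTC, but −1.73 and 9.64 points for Lys-TTT and −0.79 and 3.49 points for Asp-GTC, so the direction of the last 2 in heterozygotes rests on Gly-GCC. For Lys-CTT it was 0.0743 points (−1.04 to 1.17) in heterozygotes and −24.4 points in mutants, so its higher share in heterozygotes rests on Gly-GCC too. The same comparison is not given for Glu-TTC and Cys-GCA, whose ratios scaled between libraries follow below.

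Gly-GCC, which decodes glycine and is a Dnmt2 substrate, made up 32.7% of fragment reads in recovered heterozygotes and 53.8% in control heterozygotes. In mutants it made up 53.3% after recovery and 58.3% in control. The difference was −21.1 points (interval −22.1 to −20.1) in heterozygotes and −5.01 points (−6.43 to −3.60) in mutants. The recovered heterozygote library was thus the low one, and the other 3 lay between 53.3% and 58.3%. The 2 most abundant Gly-GCC fragments, which end at positions 33 and 34, held 13.8% and 7.53% of reads in recovered heterozygotes, against 26.6% and 14.9% in control heterozygotes. In mutants they held 31.5% and 9.13% after recovery, against 32.97% and 11.1% in control.

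Glu-CTC, a glutamate tRNA outside the list of Dnmt2 substrates, showed the opposite difference. It held 27.96% of reads in recovered heterozygotes and 17.8% in control heterozygotes, and 14.3% in recovered mutants and 7.17% in control mutants. The differences were 10.2 points (9.38 to 10.98) in heterozygotes and 7.08 points (6.13 to 8.09) in mutants, and within each genotype the recovered library was the higher one. The other glutamate isoacceptor, Glu-TTC, held 3.23% after recovery and 2.01% in control in heterozygotes, and 1.66% and 1.26% in recovered and control mutants.

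The lysine isoacceptors differed from control in unlike ways. Lys-TTT held 5.93% in recovered heterozygotes and 4.87% in control heterozygotes, and 8.27% in recovered mutants and 3.37% in control mutants. Lys-CTT held 13.9% in recovered heterozygotes and 9.53% in control heterozygotes, but 11.2% in recovered mutants and 20.2% in control mutants. The control mutant library stood highest for Lys-CTT, and the other 3 lay between 9.53% and 13.9%. Most of that gap was in a single 5′ fragment of Lys-CTT that ends at position 35, with 8.68% of reads in recovered mutants and 17.2% in control mutants.

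Asp-GTC, a Dnmt2 substrate whose anticodon can carry the modified base queuosine, held 4.08% of reads in recovered heterozygotes and 3.17% in control heterozygotes. Neither modification was measured. In mutants it held 2.68% after recovery and 0.938% in control. Cys-GCA, the only cysteine isoacceptor, held 1.21% after recovery and 0.750% in control in heterozygotes, and 1.13% and 0.612% in recovered and control mutants. The recovered library was the higher one in each genotype for both tRNAs. Met-CAT, which includes the initiator tRNA, and Gln-CTG completed the 8 isoacceptors with most reads. Met-CAT held 1.31% in recovered and 1.11% in control heterozygotes, and 0.919% in recovered and 1.33% in control mutants. Gln-CTG held 1.43% in recovered and 0.893% in control heterozygotes, and 0.939% in recovered and 0.823% in control mutants. Trp-CCA, the tryptophan tRNA, was rare, with 0.421% in recovered and 0.267% in control heterozygotes and 0.0978% in recovered and 0.243% in control mutants.

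**Figure D1:**
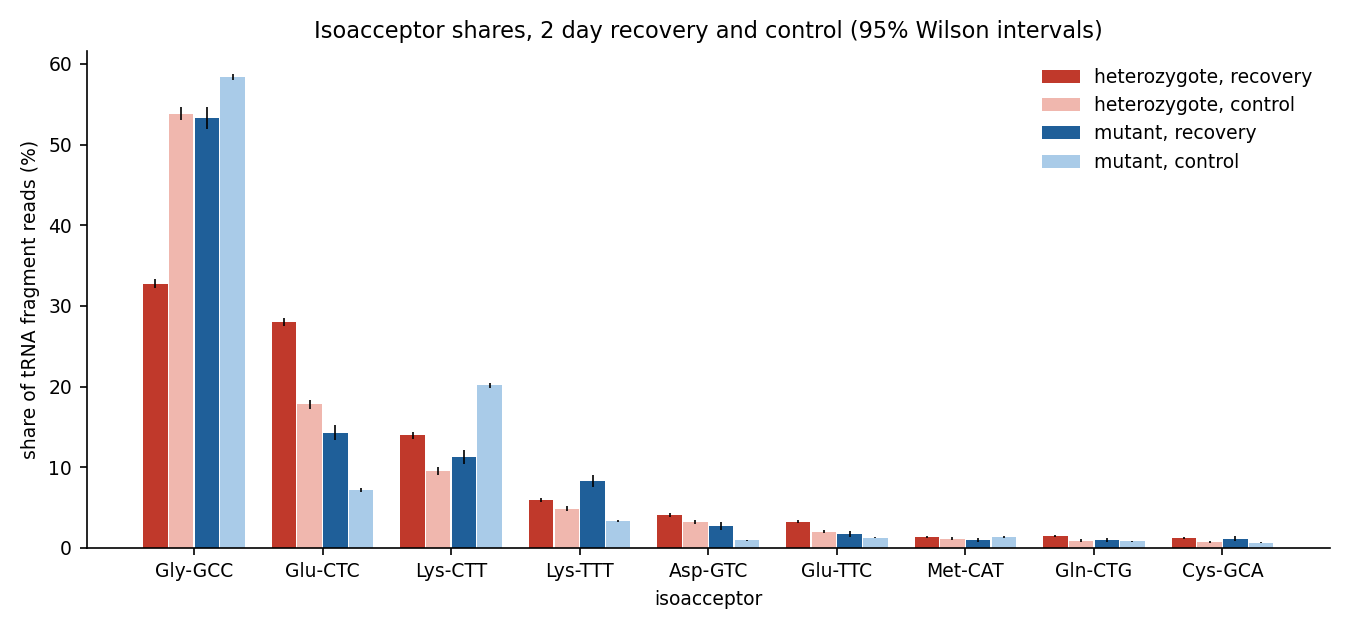
Bars give each isoacceptor's share of tRNA fragment reads (vertical axis, %) for 9 isoacceptors (horizontal axis) in the 4 libraries, with 95% Wilson intervals. Gly-GCC stands at 32.7% in recovered heterozygotes and between 53.3% and 58.3% in the other 3 libraries, and Glu-CTC is higher after recovery in both genotypes.

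Ratios were then scaled between libraries by TMM, a method that sets the bulk of features equal, since the high share of Gly-GCC weighs on all other shares. On this log2 scale of recovery over control, Gly-GCC was lower in both genotypes, at −1.16 (−1.21 to −1.12) in heterozygotes and −0.54 (−0.59 to −0.48) in mutants. Glu-CTC was higher in both, at 0.21 (0.14 to 0.27) and 0.58 (0.47 to 0.70). No other tested feature had the same sign in both genotypes with both intervals excluding 0. Glu-TTC was at 0.24 (0.05 to 0.43) in heterozygotes and −0.004 (−0.343 to 0.319) in mutants. Cys-GCA was at 0.24 (−0.07 to 0.56) in heterozygotes and 0.48 (0.06 to 0.88) in mutants. By sign alone, 2 features were higher in both genotypes, 10 were lower in both and 10 had opposite signs.

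The scaling bears on these signs. The median ratio over the 22 features was −0.06 in heterozygotes and −0.40 in mutants by TMM, and 0.38 and 0.00 when libraries were scaled by their totals alone. Scaling shifts all features of a library together, so distance from the median hardly depends on it. Set against the median, Gly-GCC stood at −1.11 in heterozygotes and −0.13 in mutants. Glu-CTC stood at 0.26 and 0.99, Glu-TTC at 0.29 and 0.40, and Cys-GCA at 0.30 and 0.88. Lys-TTT stood at −0.10 in heterozygotes and 1.29 in mutants, and Asp-GTC at −0.02 and 1.51. Relative to the median, 5 features were above it in both genotypes, 5 were below it in both and 12 were on opposite sides.

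Past a 2-fold ratio were 2 of 22 features in heterozygotes (9.09%) and 5 of 22 in mutants (22.7%). In heterozygotes they were Arg-ACG, an arginine tRNA with 133 reads after recovery and 22 in control, at 1.21, and Gly-GCC. In mutants they were Asp-GTC at 1.10, Lys-CTT at −1.26, Pro-TGG at −1.21, Trp-CCA at −1.65 and the glutamine feature whose reads fit both Gln-CTG and Gln-TTG at −1.36. Pro-TGG, Trp-CCA and the shared glutamine feature had 11, 5 and 16 reads in recovered mutants, against 258, 164 and 415 in control mutants, so their intervals were wide, as from −3.36 to −0.47 for Trp-CCA. None passed 2-fold in both genotypes. These counts depend on the scaling. By library totals Arg-ACG alone passed in heterozygotes, and in mutants Asp-GTC and Lys-TTT passed higher and Trp-CCA lower. By RLE the same 2 passed in heterozygotes, and in mutants 0 passed higher and 6 lower.

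**Figure D2:**
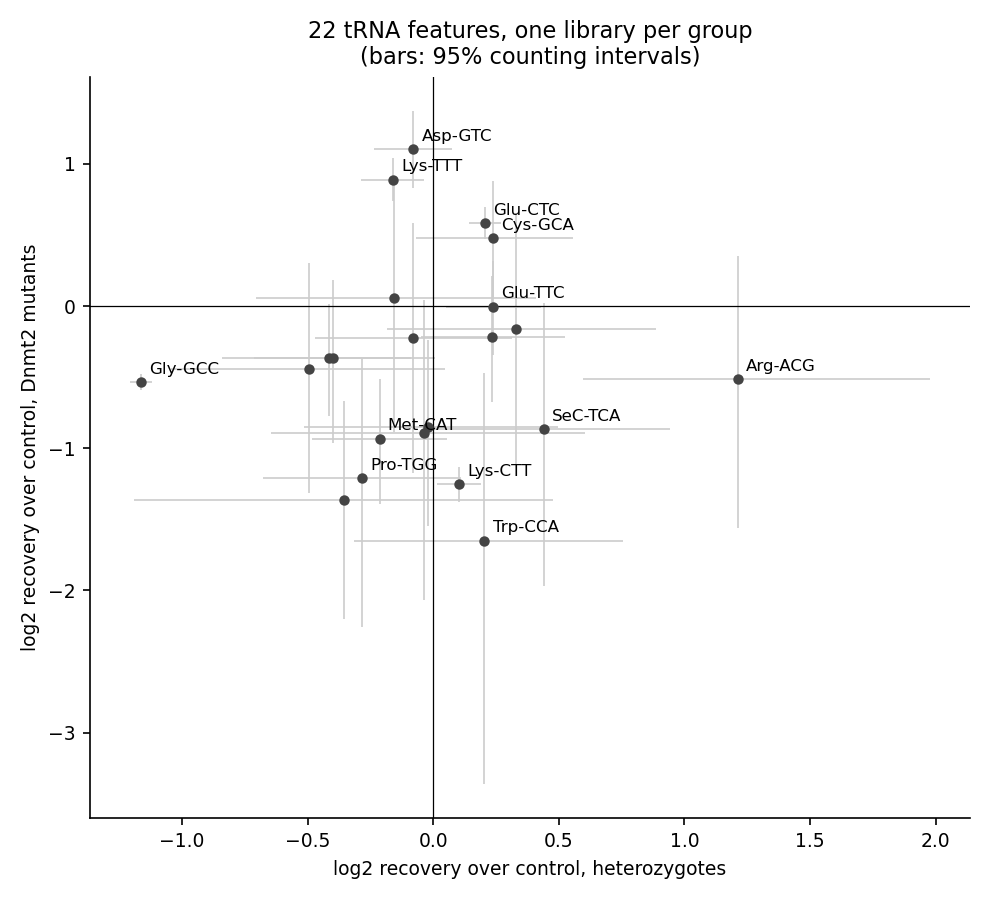
Each point is 1 of 22 tRNA features, with its log2 ratio of recovery over control in heterozygotes on the horizontal axis and in Dnmt2 mutants on the vertical axis, TMM-scaled, and 95% counting intervals as bars. Gly-GCC lies lower in both and Glu-CTC higher in both, while Lys-CTT and Lys-TTT lie in quadrants of opposite sign.

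A model with genotype and condition as additive terms over all 6 libraries asked which features differed by more than the spread that remains once both are taken out. No isoacceptor feature passed, 0 of 22 (0%), and no single fragment passed, 0 of 39 (0%), by edgeR's quasi-likelihood test with Benjamini-Hochberg adjustment at 0.05. At an unadjusted p under 0.05 there were 1 isoacceptor feature and 2 fragments by edgeR, and 0 and 2 by DESeq2, which likewise called none after adjustment. Gly-GCC had a log2 fold change of −0.84 ± 0.40 (SE, 2 libraries per condition; edgeR adjusted p = 0.442). Glu-CTC had 0.39 ± 0.36 (edgeR adjusted p = 0.442) and Asp-GTC, the highest of the 22, had 0.50 ± 0.35 (edgeR adjusted p = 0.442). The feature that fits both Gln-CTG and Gln-TTG was the lowest, at −0.85 ± 0.40, with an unadjusted p of 0.0446 and an edgeR adjusted p of 0.442. The standard errors of the features lay between 0.32 and 0.45, and the median fold change was −0.34, with 8 above and 14 below 0.

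Without the reads of 51 nt, the longest listed, 1 isoacceptor was called, Gly-GCC, at −1.15 ± 0.06 (edgeR adjusted p = 3.4e-08). The scaling differed in that fit: the TMM factors of recovered and control mutants were 1.18 and 0.61, against 1.01 and 0.76 with all reads. With all reads the standard error of Gly-GCC was 0.40. The part of the scaling in this call was not tested. Without the control heterozygote library 7 were called, all lower after recovery: the shared glutamine feature, His-GTG, Met-CAT, Pro-TGG, SeC-TCA, Ser-AGA and Trp-CCA. That fit compares recovered flies with the control mutant library alone, which is assumed to vary like the other groups, and these 7 had 5 to 47 reads in recovered mutants.

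**Figure D3:**
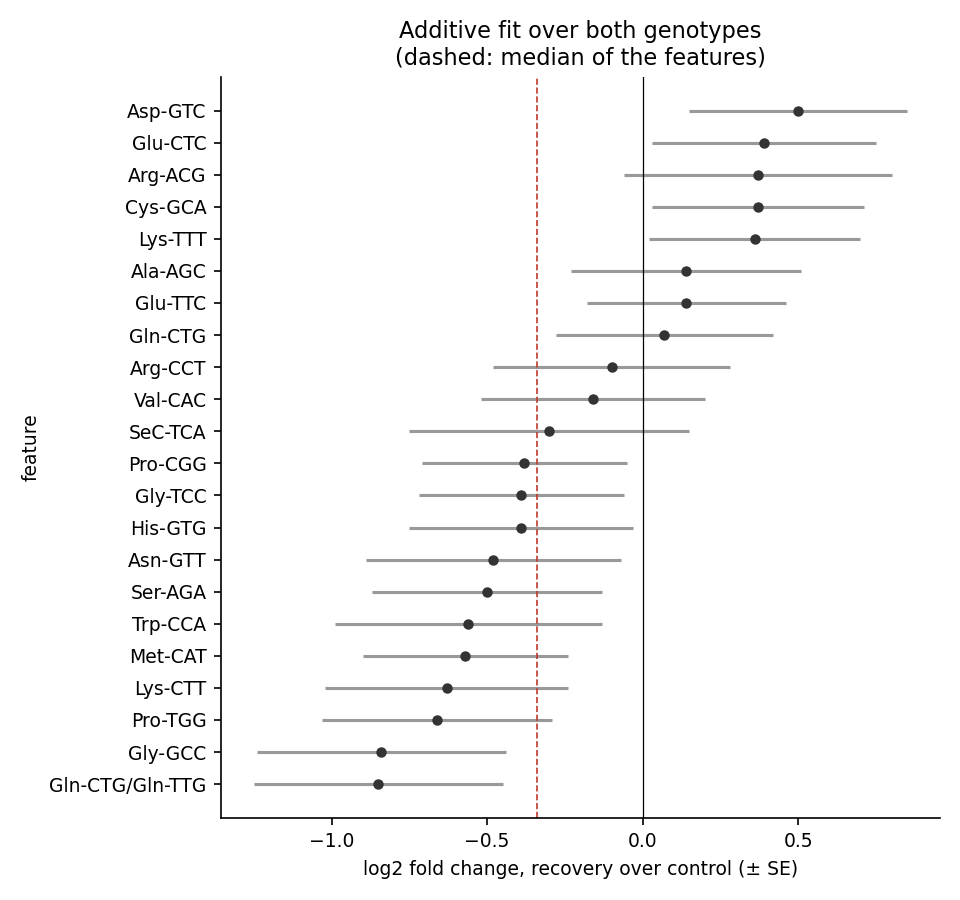
Points give the log2 fold change of recovery over control (horizontal axis) of 22 tRNA features from the additive model over 6 libraries, with SE as bars and the median of −0.34 as a dashed line. The features lie between −0.85 and 0.50, and none passed the adjusted threshold.

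Among single fragments, the Gly-GCC 5′ fragments that end at 33 and 34 had log2 fold changes of −0.91 ± 0.45 and −1.06 ± 0.44 (edgeR adjusted p = 0.402 for both). Without the recovered mutant library, recovery is the heterozygote library alone, which is assumed to vary like the other groups. In that fit these 2 were called lower, at −1.41 ± 0.20 and −1.38 ± 0.33 (edgeR adjusted p = 9.7e-08 and 0.00245). In the same fit a Glu-CTC fragment of 41 nt was called higher, at 2.51 ± 0.76 (edgeR adjusted p = 0.0364). Without the reads of 51 nt the 2 Gly-GCC fragments were also called lower, at −1.17 ± 0.26 and −1.30 ± 0.37 (edgeR adjusted p = 0.00083 and 0.0116). That fit used the same shifted TMM factors as the fit of isoacceptors without these reads. Of the 10 fragments with most reads over the 4 libraries, the lowest was the Gly-GCC fragment that ends at 35, at −1.39 ± 0.63, and the highest the Glu-CTC fragment that ends at 33, at 1.13 ± 0.53 (edgeR adjusted p = 0.402 for both). The Pro-CGG fragment of 34 nt printed above had 93 and 8 reads in recovered heterozygotes and mutants, against 71 and 179 in control heterozygotes and mutants, and −1.06 ± 0.44 (unadjusted p = 0.0358, edgeR adjusted p = 0.402). The Lys-TTT fragment of 34 nt had 389 and 92 reads in recovered heterozygotes and mutants, against 123 and 298 in control heterozygotes and mutants, and 0.99 ± 0.56, whereas its 33 nt counterpart had 0.12 ± 0.47 (edgeR adjusted p = 0.402 and 0.925).

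No tested member of the isoacceptor lists passed, and the lists themselves were not tested. The 2 tested Dnmt2 substrates had log2 fold changes of opposite sign, 0.50 for Asp-GTC and −0.84 for Gly-GCC, with Val-AAC too rare to test. Their median of −0.17, beside −0.34 over all 22 features, thus describes neither. The 3 tested tRNAs of the queuosine family had a median of −0.39, with Asp-GTC above 0 and His-GTG and Asn-GTT below it. The 2 glutamate tRNAs had a median of 0.27 and the 2 glycine tRNAs −0.61. The 2 lysine tRNAs had −0.13, from 0.36 for Lys-TTT and −0.63 for Lys-CTT. The 2 tested of 3 proline tRNAs had −0.52, and the 2 tested of 10 tRNAs with a long variable arm (serine, leucine and selenocysteine) had −0.40. Of the lists with 1 tested member, valine had −0.16, methionine −0.57 and cysteine 0.37.

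The ends of the fragments also differed. End positions do not depend on scaling, since each is given as a share of 1 isoacceptor's own 5′ fragments. The classes given first are shares of all placed reads, so they also depend on the balance of isoacceptors. Of placed reads, 87.8% were 5′ fragments in recovered heterozygotes and 91.1% in control heterozygotes, and 92.6% in recovered and 93.3% in control mutants. Fragments from the 3′ side made up 6.61% after recovery and 5.48% in control in heterozygotes, and 4.202% and 3.62% in recovered and control mutants. Internal fragments, which reach neither end, made up 5.55% and 3.42% in recovered and control heterozygotes, and 3.16% and 3.13% in recovered and control mutants.

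Lys-TTT showed the same difference in both genotypes. Fragments that keep the first anticodon base, ending at position 34, made up 26.3% of its 5′ fragments in recovered heterozygotes and 17.6% in control heterozygotes. In mutants they made up 27.3% after recovery and 15.2% in control. The difference was 8.65 points (5.09 to 12.0) in heterozygotes and 12.1 points (7.74 to 16.8) in mutants. Those ending just before the anticodon, at 33, made up 70.7% and 70.8% in recovered heterozygotes and mutants, against 80.2% and 83.3% in control heterozygotes and mutants. The 2 recovered libraries lay close to each other at both ends, and the control libraries likewise. Ends at 33 and 34 hold nearly all Lys-TTT 5′ fragments, so the 2 differences are not separate results.

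A longer 5′ fragment that ends at position 41, past the anticodon loop, made up a larger share of 5′ fragments after recovery in Lys-CTT and Glu-CTC. In Lys-CTT it made up 7.95% of 5′ fragments in recovered heterozygotes and 5.85% in control heterozygotes, and 9.68% in recovered mutants and 4.04% in control mutants. In Glu-CTC it made up 1.41% (105 of 7446 reads) in recovered heterozygotes and 0.394% (10 of 2539) in control heterozygotes. In mutants it made up 5.67% (39 of 688) after recovery and 0.154% (7 of 4555) in control. The intervals of all 4 differences exclude 0. By abundance, in the additive model, the Lys-CTT fragment from 1 to 41 had a log2 fold change of 0.19 ± 0.60 (edgeR adjusted p = 0.925). That of Glu-CTC had too few reads to be tested in that model. In Glu-TTC it made up 17.9% (14 of 78) in recovered mutants and 1.86% (11 of 590) in control mutants, while in heterozygotes the shares were 5.56% after recovery and 4.38% in control, with an interval from −2.45 to 3.95 points. Of Lys-TTT 5′ fragments 1 read in the 4 libraries ended there, and of Asp-GTC none, which allowed up to 3 counts of 577 reads in recovered heterozygotes and of 80 in recovered mutants.

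Gly-GCC ends at 34 and Glu-TTC ends at 51 were lower after recovery in both genotypes, with intervals that exclude 0. Gly-GCC ends at 34 made up 25.3% and 17.99% of 5′ fragments in recovered heterozygotes and mutants, against 29.34% and 20.1% in control heterozygotes and mutants. Glu-TTC ends at 51 made up 13.2% and 8.97% in recovered heterozygotes and mutants (88 of 666 and 7 of 78 reads), against 19.9% and 19.7% in control heterozygotes and mutants. These are reads of 51 nt, the longest listed, and whether longer fragments were cut at that length is not stated. Of Glu-CTC 5′ fragments in mutants, 36.8% ended at 33 after recovery and 13.4% in control, and 41.4% and 72.7% in recovered and control mutants ended at 35. In heterozygotes 34.3% ended at 33 after recovery and 32.5% in control, and 46.5% and 47.4% ended at 35 in recovered and control heterozygotes. Among the recovery and control libraries, that of control mutants was the one apart at both ends. At 5 h after heat shock, 17.5% ended at 33 and 64.0% at 35 in mutants, nearer to control than to recovered mutants. In heterozygotes at 5 h the shares were 22.6% and 58.7%. In Gly-GCC, ends at 35 and 36, within the anticodon, made up 9.66% and 8.53% in recovered heterozygotes, against 4.96% and 4.21% in control heterozygotes. In mutants they made up 1.85% and 0.732% after recovery, against 8.61% and 2.43% in control. Gly-GCC ends at 52, from reads of 51 nt, made up 7.97% of 5′ fragments in recovered mutants (207 of 2596 reads) and 0.850% in control mutants, and 1.22% and 0.578% in recovered and control heterozygotes.

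Of Cys-GCA 5′ fragments, 40.9% ended at 33 in recovered heterozygotes and 25.9% in control heterozygotes, while in mutants the shares were 25.0% after recovery and 21.6% in control, with an interval from −6.96 to 16.7 points. The printed 32 nt Cys-GCA fragment had 119 and 8 reads in recovered heterozygotes and mutants, against 26 and 70 in control heterozygotes and mutants. Of Asp-GTC 5′ fragments, 73.1% and 75.0% ended at 35 in recovered heterozygotes and mutants, against 67.5% and 74.2% in control heterozygotes and mutants, and both intervals include 0. Its 3′ fragments began at position 28, before the anticodon loop, in 38.8% of cases in recovered heterozygotes and 14.4% in control heterozygotes. In mutants 10.3% began there after recovery and 6.02% in control, from only 39 fragments in the recovered library. The printed 45 nt fragment, which keeps the whole anticodon, had 133 and 4 reads in recovered heterozygotes and mutants, against 19 and 7 in control heterozygotes and mutants.

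**Figure D4:**
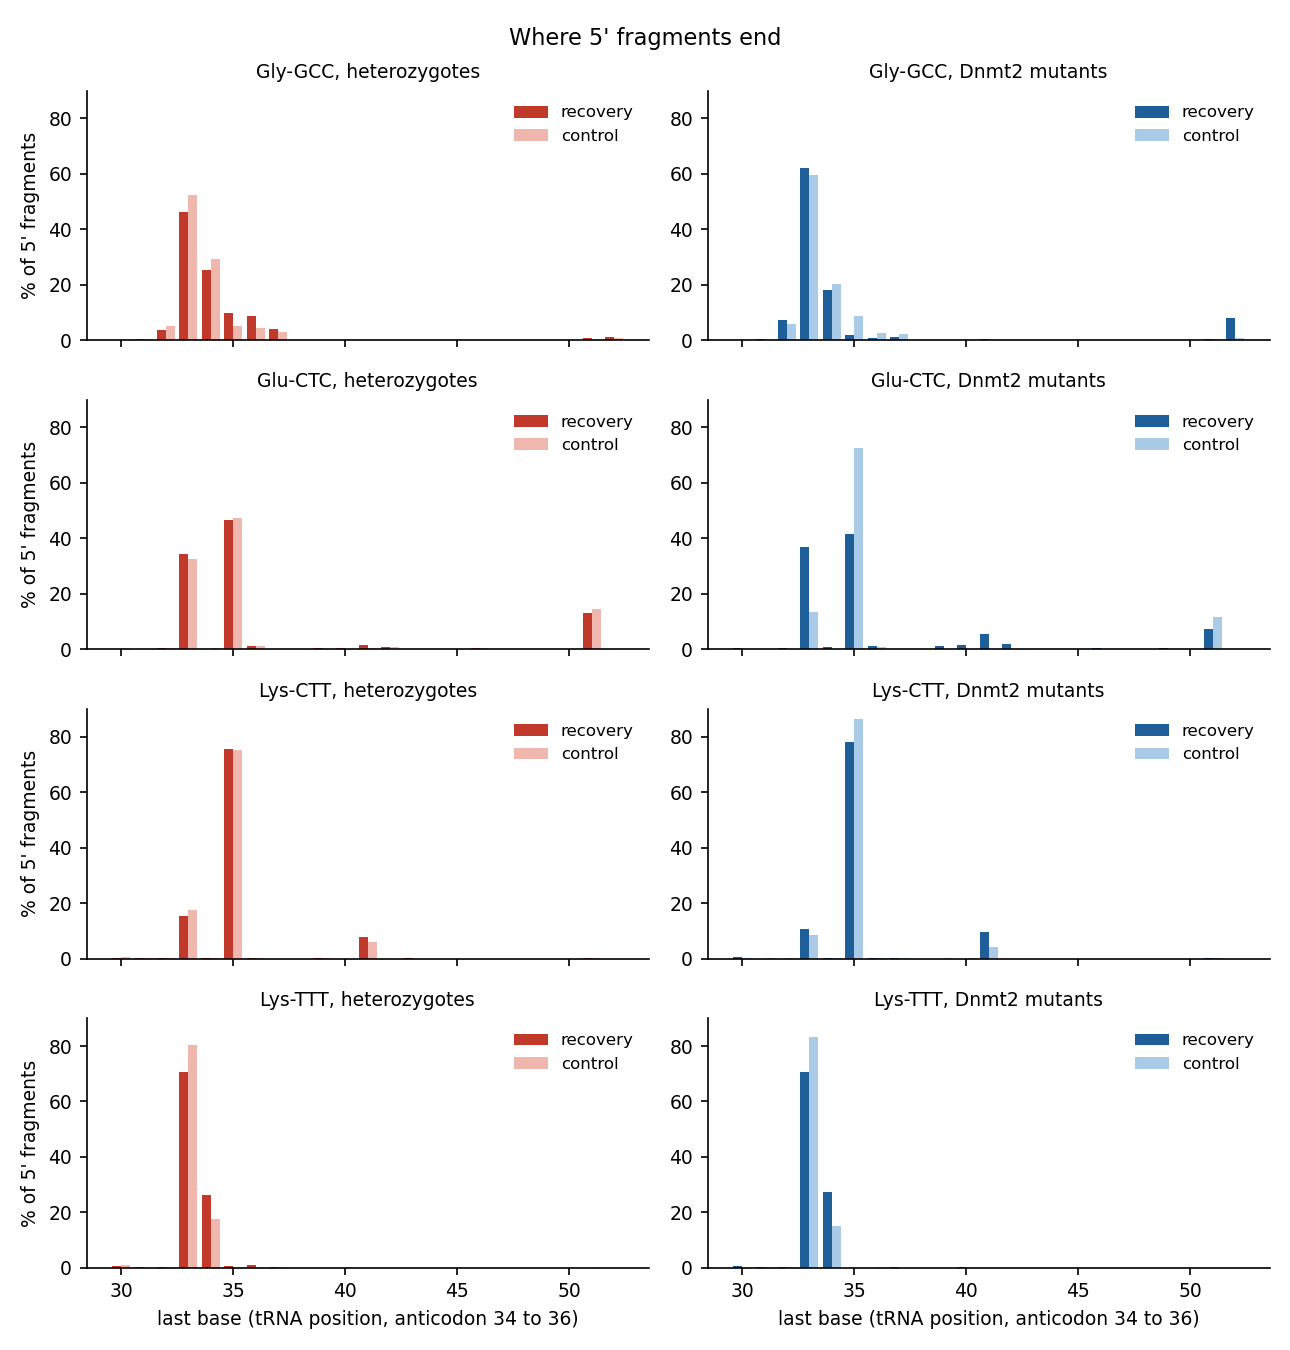
Bars give the share of an isoacceptor's 5′ fragments (vertical axis, %) by the tRNA position of their last base (horizontal axis) in recovery and control, with heterozygotes on the left and Dnmt2 mutants on the right. Lys-TTT ends at 34 are higher after recovery in both genotypes, Glu-CTC in mutants is at 36.8% after recovery and 13.4% in control at 33, and Lys-CTT has a further end at 41.

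Longer reads held a larger share in both recovered libraries than in their controls. Reads of 36 to 50 nt made up 15.0% in recovered and 10.9% in control heterozygotes, a difference of 4.10 points (3.46 to 4.74). In mutants they made up 11.1% after recovery and 8.35% in control, a difference of 2.80 points (1.94 to 3.71). Of the 15 lengths in this range, 14 had the higher share in the recovered library of heterozygotes and 11 in that of mutants, with intervals that exclude 0 for 9 and 8. Within isoacceptors the direction in mutants varied. Reads of 36 to 50 nt made up 5.80% of Gly-GCC reads in recovered and 6.91% in control mutants, and 24.8% and 34.9% of Asp-GTC reads. Of Glu-CTC reads they made up 15.1% in recovered and 3.86% in control mutants. Reads of 41 nt made up 2.07% and 2.31% in recovered heterozygotes and mutants, against 0.887% and 1.03% in control heterozygotes and mutants. Reads of 51 nt, at the upper bound of the listed lengths, made up 4.47% and 6.69% in recovered heterozygotes and mutants, against 3.49% and 3.16% in control heterozygotes and mutants. Gly-GCC supplied 213 of the 342 such reads in recovered mutants and 324 of 2135 in control mutants. Without Gly-GCC, reads of 51 nt made up 2.52% of the library in recovered mutants and 2.68% in control mutants, and 4.11% and 3.18% in recovered and control heterozygotes.

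Among the short classes the genotypes differed. Reads of 35 nt made up 28.2% in recovered and 19.5% in control heterozygotes, but 16.4% in recovered and 24.3% in control mutants. Reads of 33 nt made up 25.6% in recovered and 27.8% in control heterozygotes, and 23.3% in recovered and 18.2% in control mutants. Reads of 32 nt, mostly the main Gly-GCC fragment, made up 15.9% in recovered and 27.98% in control heterozygotes, and 32.9% in recovered and 34.1% in control mutants.

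**Figure D5:**
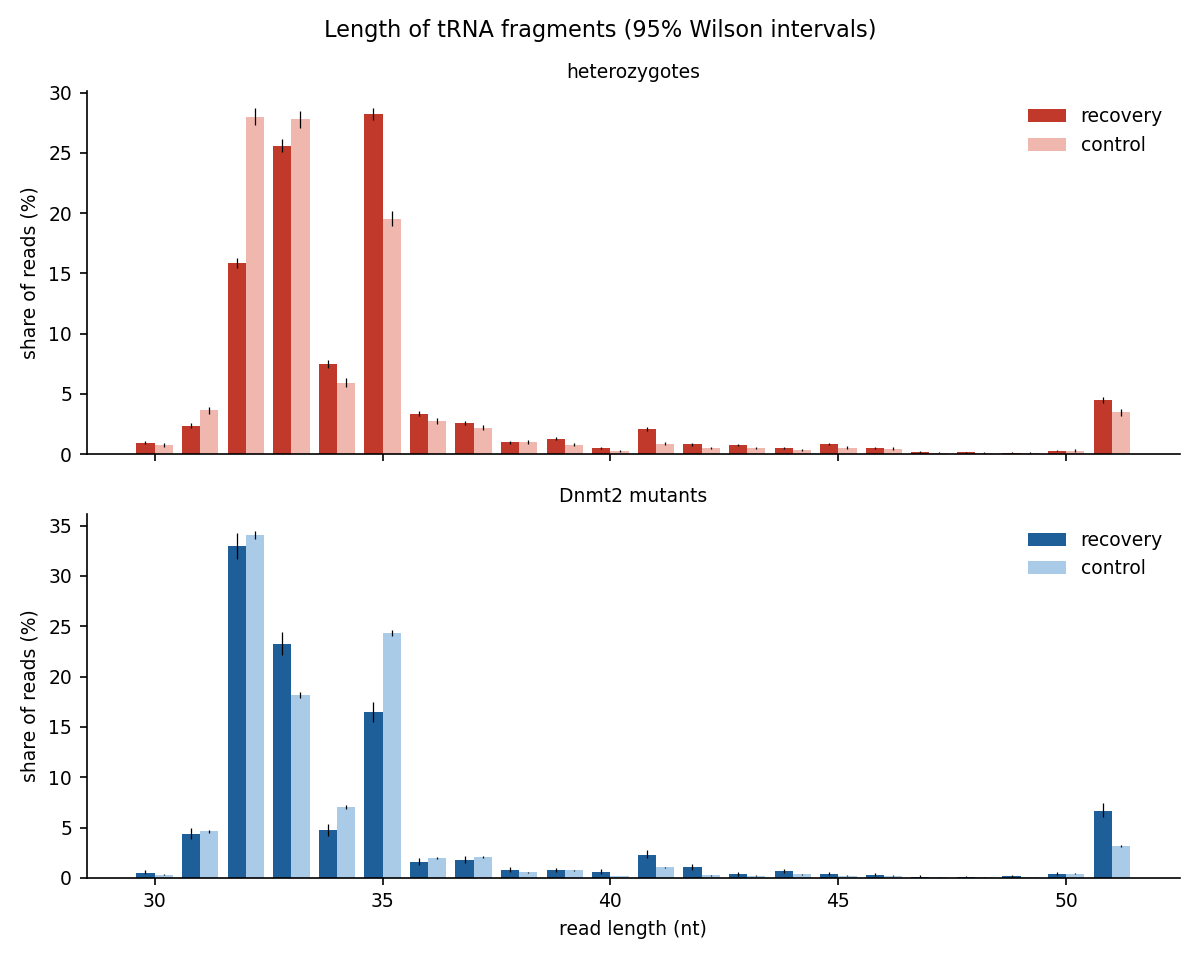
Bars give the share of tRNA fragment reads (vertical axis, %) by length (horizontal axis, nt) in recovery and control of heterozygotes (top) and Dnmt2 mutants (bottom), with 95% Wilson intervals. Reads of 41 nt are higher after recovery in both genotypes, at 2.07% and 2.31%, and reads of 35 nt are higher in recovered heterozygotes and lower in recovered mutants than in their controls.

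The acute time point shows which of these shares had already differed. The 3 conditions share their control libraries, so the values are given side by side in the order control, 5 h after heat shock and 2 days after it. Cys-GCA held 0.750%, 2.69% and 1.21% in heterozygotes and 0.612%, 4.81% and 1.13% in mutants, so its recovered share lay between the other 2 in both genotypes. Asp-GTC held 3.17%, 5.66% and 4.08% in heterozygotes and 0.938%, 2.99% and 2.68% in mutants, again in between. In mutants, however, its intervals at 5 h (2.83% to 3.17%) and at recovery (2.27% to 3.16%) overlap. Glu-CTC held 17.8%, 24.96% and 27.96% in heterozygotes and 7.17%, 13.5% and 14.3% in mutants, where recovery was the highest of the 3 values in both. Its intervals in mutants overlap too, at 13.2% to 13.9% for 5 h and 13.3% to 15.2% for recovery. Lys-TTT held 4.87%, 3.70% and 5.93% in heterozygotes and 3.37%, 4.27% and 8.27% in mutants, also highest at recovery. Gly-GCC held 53.8%, 45.6% and 32.7% in heterozygotes and 58.3%, 56.5% and 53.3% in mutants, lowest at recovery. Lys-CTT in mutants held 20.2%, 9.40% and 11.2%.

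Ends gave a similar split. Of Gly-GCC 3′ fragments, 20.2%, 69.3% and 16.3% of those from heterozygotes began at position 35, against 8.95%, 56.7% and 23.2% of those from mutants, again from control to 2 days. The recovered heterozygote value lay within counting error of its control (difference −3.87 points, −8.92 to 0.914), and the recovered mutant value above its control by 14.2 points (6.70 to 23.7). Lys-TTT 5′ fragments ending at 34 made up 17.6%, 20.4% and 26.3% in heterozygotes and 15.2%, 14.1% and 27.3% in mutants. Glu-CTC 5′ fragments ending at 41 made up 0.394%, 1.10% and 1.41% in heterozygotes and 0.154%, 1.46% and 5.67% in mutants. Those of Lys-CTT made up 5.85%, 5.77% and 7.95% in heterozygotes and 4.04%, 2.40% and 9.68% in mutants. Reads of 36 to 50 nt made up 10.9%, 14.3% and 15.0% in heterozygotes and 8.35%, 11.3% and 11.1% in mutants. Over all isoacceptors, the share of reads that would have to change isoacceptor to turn one library into the other was 21.3 points for recovery against control and 12.3 points for 5 h against control in heterozygotes, and 15.5 and 15.2 points in mutants. For recovery against 5 h it was 15.96 points in heterozygotes and 8.51 points in mutants.

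The recovered libraries held more distinct sequences at an equal number of listed tRNA reads. When each library was reduced to 5113 reads, the expected number of distinct sequences was 477.4 in recovered and 386.5 in control heterozygotes, and 433 in recovered and 323.9 in control mutants. The heat shock libraries gave 355.5 in heterozygotes and 336.3 in mutants, so both recovered libraries were above the other 4.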

How the data were processed

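Per the file headers, the deposited files give a count for each sequence at each tRNA gene it matches. The RNA was 25 to 70 nt long (200 µg total RNA per library, 2S rRNA depleted), per the labels' protocols. The submitters' processing notes name Bowtie and dm3, and no settings. Library names read wild type where the labels say heterozygous, and the labels were followed. List totals are not sequencing depth.

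A read is listed at several genes, at some in shortened form, so each read was taken once and summed per isoacceptor. Sequences that fit 2 anticodons formed their own features (48 features, 3100 sequences of 30 to 51 nt). Reads were placed on gene sequences joined from overlapping reads and anchored at the anticodon. Of 297 genes, 285 matched the RefSeq table, which is of another build and gave names and lengths only.

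Features with at least 10 counts (scaled to the smallest library) in 3 libraries were fitted with edgeR 4.0.16 in R 4.3.3 (TMM, quasi-likelihood, additive genotype and condition, 2 residual degrees of freedom, 2-sided, Benjamini-Hochberg, 0.05). The SE of each edgeR fold change was derived from the test, as the absolute log2 fold change divided by the square root of the F statistic. DESeq2 1.42.0 was an alternative. The remaining spread includes any difference in response between genotypes, which could not be tested. Ratios within a genotype used a prior count of 2 and exact conditional binomial intervals. Shares have Wilson intervals and their differences Newcombe intervals. Ends were described where each of the 4 libraries had 50 5′ or 30 3′ fragments, at positions holding 5% or more in 1 of them. The counting of each read once, the Wilson and ratio intervals and the edgeR fit were tested on simulated data. The placing of reads on tRNAs was not.

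Members and lists were chosen with earlier results of these data known. Named were features past the threshold, the 8 isoacceptors and 10 fragments with most reads, list members (Dnmt2 substrates, queuosine family, glutamate, lysine, glycine, valine, proline, long variable arm, methionine, cysteine) and features of opposite sign. The Pro-CGG, 34 nt Lys-TTT, 32 nt Cys-GCA, 45 nt Asp-GTC and 41 nt Glu-CTC fragments, Arg-ACG and Trp-CCA were chosen after their values were seen.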

Additional observations from a re-analysis of the deposited data

Results flagged for a closer look

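The following differences ran in opposite directions in the genotypes, with both counting intervals excluding 0. With 1 library per group the difference between genotypes was not tested. The control mutant library is the deepest, with 67477 reads, and the recovered mutant library the shallowest, with 5113. The part of depth in these differences was not tested. Each value below is the recovery minus control value in mutants minus that in heterozygotes.

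The log2 ratio of Lys-CTT was −1.26 in mutants and 0.10 in heterozygotes, a difference of −1.36, and its share of reads differed by −13.37 points. The log2 ratio of Lys-TTT was 0.89 in mutants and −0.16 in heterozygotes, a difference of 1.05; by library totals it was 1.30 in mutants and 0.28 in heterozygotes. The share of Trp-CCA differed by −0.30 points, from 5 reads in recovered mutants.

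Among Gly-GCC 5′ fragments the difference was 2.90 points for ends at 32, 8.79 points at 33 (where, with each distinct sequence once, the recovery minus control difference was −1.46 points in mutants and −6.57 in heterozygotes, the same direction), −11.46 points at 35 and −6.01 points at 36. The share of Gly-GCC reads of 36 to 50 nt differed by −5.62 points. Among Glu-TTC reads the share of 5′ fragments differed by 29.74 points and, among its 5′ fragments, the share ending at 31 by −13.20 points. Among Asp-GTC reads the share of internal fragments differed by −21.75 points and that of 36 to 50 nt by −21.65 points. The share of Asp-GTC 3′ fragments that begin at 38 differed by 19.12 points. Over all reads the difference was 7.27 points at 33 nt, −3.84 points at 34 nt and −16.56 points at 35 nt.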

How the results depend on the processing

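No isoacceptor passed the threshold in 14 of 16 alternative fits, with 1 called without reads of 51 nt and 0 to 7 when single libraries were left out. No fragment passed in 11 of 14, with 1 called with no count minimum (the 41 nt Glu-CTC fragment), 2 without reads of 51 nt and 0 to 3 when single libraries were left out. In the fits of isoacceptors, Gly-GCC, Met-CAT, Pro-TGG, Asn-GTT, Ser-AGA, the shared glutamine feature, Asp-GTC, Cys-GCA and Glu-CTC kept their sign in every alternative that tested them, but not their size. Leaving out 1 library moved the log2 fold change of Asp-GTC to 0.05 without the control mutants and 0.06 without the recovered mutants. That of Cys-GCA moved to 0.04 without the recovered heterozygotes and 0.06 without the control mutants. That of Glu-CTC moved to 0.08 without the control heterozygotes.

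Of the ratios within a genotype, the features lower in both numbered 3 by RLE size factors and 2 both with each distinct sequence once and without reads of 51 nt, and those higher in both numbered 5 by total counts. Features of opposite sign numbered 1 by RLE and 5 without reads of 51 nt. By total counts the log2 ratio of Lys-TTT in heterozygotes turned to 0.28. Among reads other than Gly-GCC the recovery minus control share differences were 0.0743 points in heterozygotes and −24.4 in mutants for Lys-CTT, 3.07 and 13.3 for Glu-CTC, −1.73 and 9.64 for Lys-TTT, and −0.79 in heterozygotes for Asp-GTC. That of Gly-GCC in mutants was −3.34 points with each distinct sequence once and −7.07 without reads of 51 nt. With each distinct sequence once, the difference in heterozygotes was −4.05 points for 5′ and 2.83 for internal fragments, and that in mutants was 6.08 points for reads of 36 to 50 nt and −1.46 for Gly-GCC ends at 33. The causes of these shifts were not tested.

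The additive genotype term pairs recovery with control within each genotype; the labels give no replicate numbers, so no further pairing was fitted. The recovered mutant library, with 5113 reads, sets the limit for rare isoacceptors.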
